A study of Mus musculus with 34 samples.

Results

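Cardiac fibroblasts under direct conversion and cardiomyocytes made by way of a pluripotent cell were set side by side at nearly the same labelled day. The first group, called MGT D10 here, holds cardiac fibroblasts of day 10 that were infected with a retrovirus carrying Mef2c, Gata4 and Tbx5 on 1 transcript. The second, called iPSC2-CM D9, holds cardiomyocytes at day 9 that were differentiated from the second of the study's induced pluripotent stem cell lines, a line made by delivering the reprogramming factors Oct4, Sox2, Klf4 and cMyc to cardiac fibroblasts. Both were chosen by sample title and have 2 arrays each, so that 4 of the 34 arrays of the series carry the comparison. Every group came from CD1 mice with the aMHC-GFP genotype, aMHC being the usual name of the alpha myosin heavy chain made by Myh6. The labels' protocols describe 1 supplemented culture medium for both kinds of cell, and total RNA was measured on Agilent mouse arrays with 1 colour. Groups given beside the comparison, as values only, are MGT D14 (the same conversion at day 14), iPSC1-CM D13 (cardiomyocytes from the first iPSC line at day 13), neoCM (cardiomyocytes from pups at postnatal day 1.5), LacZ D10 (fibroblasts infected with LacZ, day 10) and CF D0 (cardiac fibroblasts at day 0). The labels name no sort of the cells, leave it unstated whether the 2 arrays of a group came from different cultures, and do not give the event from which each day was counted. iPSC2 is 1 line, and the infected fibroblasts of a culture need not all take up or express the virus.

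As background, Mef2c, Gata4 and Tbx5 are transcription factors of the early heart that, delivered together, can switch part of a fibroblast culture towards a heart muscle programme without a pluripotent stage. Differentiation from pluripotent cells instead repeats embryonic steps: mesoderm, then cardiac progenitors marked by Isl1 and Nkx2-5, then beating cardiomyocytes of an embryonic kind. Contraction rests on the sarcomere, in which myosin thick filaments pull on actin thin filaments that troponin switches on when calcium leaves the sarcoplasmic reticulum. Many of these proteins have isoforms for the atrium, the ventricle, skeletal muscle, or the embryonic and adult heart.

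Levels below are log2 processed intensity after subtraction of the array's own 75th percentile, so that 0 is the brightness of that percentile and 1 unit is a 2-fold difference. A level belongs to 1 probe and is compared between arrays, not between genes. Changes are MGT D10 minus iPSC2-CM D9 from a limma fit over all 34 arrays, with their standard error (SE), and a gene was called at a Benjamini-Hochberg adjusted p under 0.05 and at least a 2-fold change. With 2 arrays a group the SE and p-values measure the spread between replicates, which may be technical. That spread was pooled over all groups of the fit, not taken from MGT D10 and iPSC2-CM D9 alone. One of those groups was iPSC2-CM D29, cardiomyocytes of the second iPSC line at day 29. Its replicates correlated at r = 0.895 over genes, and 8212 genes differed by 2-fold or more between them. A gene with close replicates in both compared groups can therefore have a large SE and go uncalled. Both MGT D10 arrays lay on 1 slide and both iPSC2-CM D9 arrays on another that was scanned on a different day, so slide, scan day and group cannot be told apart. MGT D14 lay on the slide of iPSC2-CM D9, and its values are given where putting it in the place of MGT D10 changed the call of a gene described. On the MGT D10 arrays 32768 and 35344 of 59305 spots were well above background, against 37228 and 39098 on the iPSC2-CM D9 arrays, and no spot was saturated. Replicates correlated at r = 0.993 over genes in MGT D10 and at r = 0.989 in iPSC2-CM D9, and 647 and 1289 genes differed by 2-fold or more between the replicates of each.

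The arrays of both groups carried cardiomyocyte transcripts. Cardiac troponin T, encoded by Tnnt2, read 8.03 and 7.97 in MGT D10, against 7.95 and 8.38 in iPSC2-CM D9, with 4.72 and 4.28 in LacZ D10. Cardiac alpha actin, encoded by Actc1, read 8.48 and 8.42 in MGT D10, against 8.88 and 9.65 in iPSC2-CM D9, with -1.62 and -1.91 in LacZ D10. Neither gene was called (adjusted p = 0.67 and 0.0084, the change of Actc1 being -0.81 ± 0.25, SE), and both stood far above the LacZ fibroblasts. Actc1 was called lower with MGT D14 in place of MGT D10 (-1.01, adjusted p = 0.0017), where 43.1% of all genes were called, 20.4% higher and 22.7% lower, and without iPSC2-CM D9 replicate 1 (-1.19, adjusted p = 0.0010). Fibroblast markers, by contrast, separated the groups. Thy1, a surface glycoprotein used to mark fibroblasts, read 5.92 and 5.94 in MGT D10, against -4.63 and -4.35 in iPSC2-CM D9. Pdgfra, a receptor found on fibroblasts and on early mesoderm, read 0.91 and 0.95 in MGT D10, against 1.53 and 1.15 in iPSC2-CM D9, and was not called (change -0.41 ± 0.63, adjusted p = 0.60). The MGT D10 arrays held cardiac and fibroblast transcripts together, and in bulk RNA fewer cells of a type and less RNA per cell cannot be told apart.

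Of 19408 genes tested, 8539 (44.0%) were called: 3991 (20.6%) were higher and 4548 (23.4%) lower in MGT D10. The median change over all tested genes was -0.16, and it was 0.01 after quantile normalization, under which 4462 genes were higher and 3694 lower. Large differences were mostly on the MGT side, with 848 genes at least 16-fold higher and 386 at least 16-fold lower. Among the genes called higher, 880 were not well above background on any iPSC2-CM D9 array, and among those called lower 1262 were not above it on any MGT D10 array. Over all genes the group means correlated at r = 0.861, against r = 0.970 between MGT D10 and LacZ D10 and r = 0.947 between iPSC2-CM D9 and iPSC1-CM D13, as a description across genes of 2-array means.

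Among genes with an established symbol and above background on both MGT D10 arrays, the 8 largest changes in the higher direction were in Scg2, Itgbl1, Sln, Ccn5, Ctss, Saa3, Gpnmb and Fbln5, of which Sln, Ctss and Saa3 are described with their lists. Scg2, which encodes a secretogranin of secretory vesicles, read 7.37 and 7.33 in MGT D10, against -6.18 and -7.33 in iPSC2-CM D9, where it was not well above background on either array. That is at least 6643-fold higher in MGT D10 (limma adjusted p = 1.6e-10), a bound that takes as the dim group's level on each array the higher of the gene's own value and the dimmest probe above background, as do all the bounds that follow. The integrin-related Itgbl1 was at least 4579-fold higher, the matricellular Ccn5 at least 2130-fold, the elastic fibre protein Fbln5 at least 1891-fold, and the glycoprotein Gpnmb of macrophages and other cells at least 893-fold. All 4 were bright in LacZ D10 too, where the lower array of each read 4.91, 5.97, 5.44 and 3.04. Fbln5 was the exception across iPSC lines, since iPSC1-CM D13 read 6.91 and 6.93, above MGT D10 at 5.58 and 5.49. On the lower side stood Myl3 and Myl2, the ventricular myosin light chains, Cfc1, a coreceptor for Nodal, Bmp7, a bone morphogenetic protein, Prtg, an embryonic surface protein, Gipr, the receptor of the gut hormone GIP, Lin28b and Myh7. Gipr was at least 419-fold lower in MGT D10 (limma adjusted p = 7.2e-13), and Prtg was not above background on any MGT D10 array (adjusted p = 4.2e-09). Gipr read 3.17 and 3.25 in iPSC1-CM D13 as well, and Prtg -0.82 and -0.80 there.

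**Figure D1:**
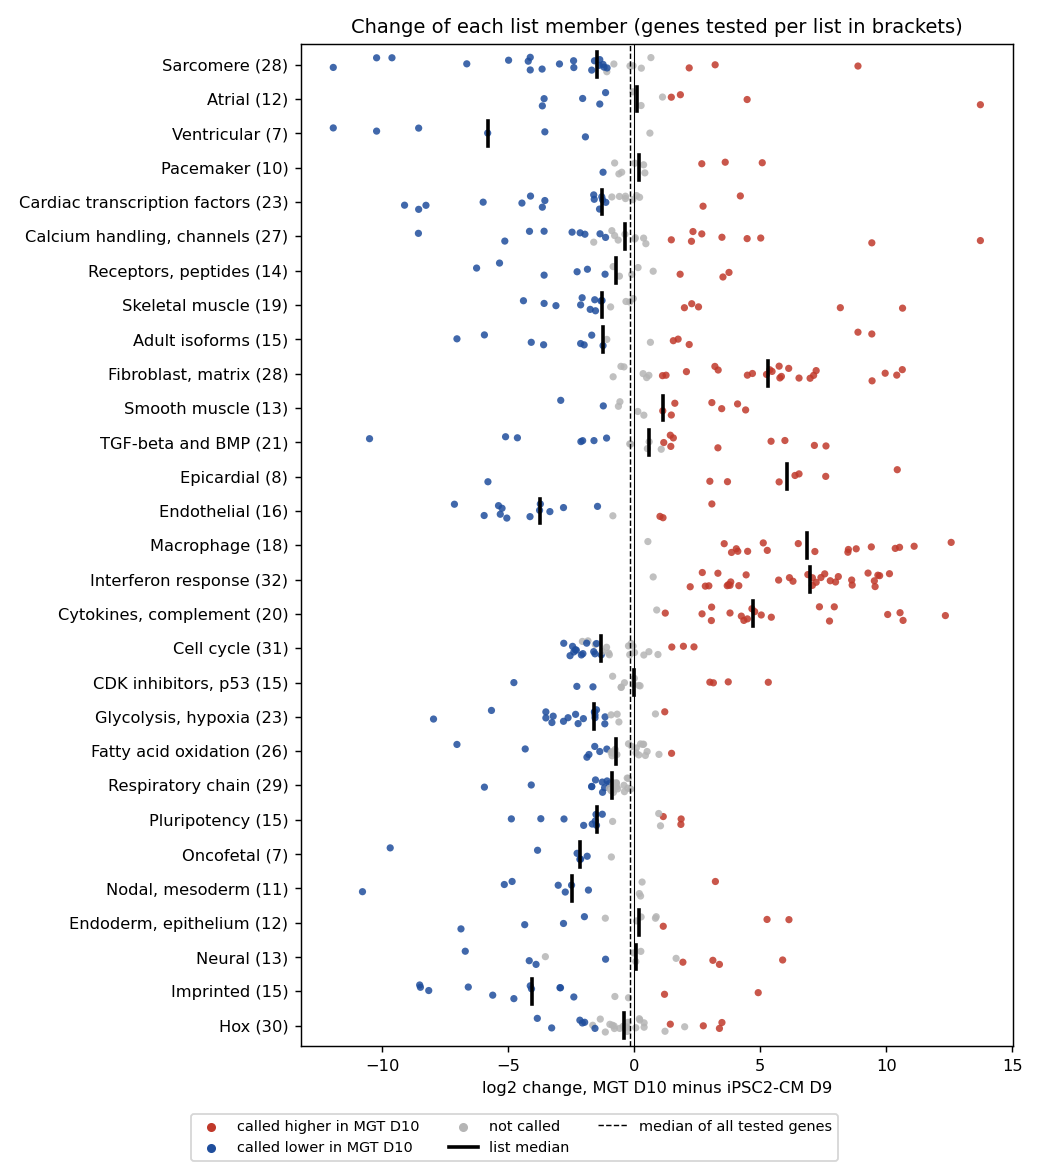
Log2 change (MGT D10 minus iPSC2-CM D9, horizontal axis) of every tested member of 29 gene lists, 1 point a gene, with the number tested in brackets. Red points were called higher in MGT D10, blue points lower and grey points neither, the black bar is the median of the list and the dashed line the median of all 19408 tested genes (-0.16); interferon, macrophage and fibroblast members lie to the right, ventricular, imprinted and glycolytic members to the left, and sarcomere members on both sides. A gene that was not above background in 1 group is drawn at its fitted change, which is no bound.

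Sarcomere genes were expressed in both groups but at different levels. Of 28 members tested, 3 were higher and 19 lower in MGT D10, where 20.6% and 23.4% of all genes were, with a median change of -1.49. The median level of the list was 3.22 and 3.07 on the MGT D10 arrays, against 5.41 and 5.37 on the iPSC2-CM D9 arrays, with 6.38 and 6.37 in neoCM and -3.51 and -3.73 in LacZ D10. The iPSC1-CM D13 arrays, at 3.78 and 3.80, were nearer to MGT D10. The MGT D10 arrays thus lay below these cardiomyocyte groups, by less for iPSC1-CM D13, and far above the LacZ fibroblasts. Among thick filament genes the ventricular light chains changed most. Myl3, the essential light chain of the ventricle, read -3.06 and -3.14 in MGT D10, against 8.58 and 9.12 in iPSC2-CM D9. The LacZ D10 arrays read -3.79 and -3.40, just below MGT D10, while neoCM read 8.84 and 8.94. The change was -11.95 ± 0.54 (limma adjusted p = 5.0e-13), the lowest of all genes tested. Myl2, the regulatory light chain of the ventricle, read -3.0 and -2.75 in MGT D10, against 7.10 and 7.62 in iPSC2-CM D9, a change of -10.23 ± 0.49. Myh7, the slow beta myosin heavy chain that mouse ventricles use before birth, read -0.54 and -0.86 in MGT D10, against 8.71 and 9.13 in iPSC2-CM D9, a change of -9.62 ± 0.61. Neither gene's groups overlapped, which held for 82.5% of all tested genes. The LacZ D10 arrays (-4.26 and -3.76 for Myl2, -4.04 and -4.19 for Myh7) lay below MGT D10 for both. The atrial light chains and the alpha myosin heavy chain gene Myh6 changed less or were not called. Myl4, the essential light chain of the atrium and embryonic heart, read 8.89 and 8.80 in MGT D10, against 8.57 and 9.21 in iPSC2-CM D9, and its groups overlapped (change -0.05 ± 0.17, adjusted p = 0.83), whereas against iPSC1-CM D13 it was higher by 1.68 (adjusted p = 7.4e-08). Myl7, the atrial regulatory light chain, read 6.74 and 6.58 in MGT D10, against 7.80 and 8.26 in iPSC2-CM D9 (change -1.37 ± 0.46, adjusted p = 0.014). Myh6, the alpha myosin heavy chain, read 7.22 and 7.16 in MGT D10, against 8.27 and 8.59 in iPSC2-CM D9 (change -1.24 ± 0.28, adjusted p = 0.00061). Without MGT D10 replicate 2 or iPSC2-CM D9 replicate 2 Myl7 lost its call (adjusted p = 0.067 and 0.10). A second probe of Myh6 changed by -3.54. Both calls ended under quantile normalization, at -0.62 (adjusted p = 0.17) for Myl7 and -0.64 (adjusted p = 0.068) for Myh6. Against iPSC1-CM D13 in place of iPSC2-CM D9, Myl7 changed by 0.84 (adjusted p = 0.13) and Myh6 by -0.34 (adjusted p = 0.31).

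The thin filament and the Z-disc showed the same unevenness. Tnni1, the slow skeletal and embryonic troponin I, read 0.07 and -0.10 in MGT D10, against 6.33 and 6.94 in iPSC2-CM D9 (change -6.65 ± 0.63, adjusted p = 2.4e-08). Its adult cardiac counterpart Tnni3 read 3.25 and 3.19 in MGT D10, against 4.33 and 4.29 in iPSC2-CM D9, and was not called (change -1.09 ± 0.53, adjusted p = 0.08, and 0.0044 in a fit of the 4 arrays alone). Actn2, the alpha actinin that anchors thin filaments at the Z-disc, read 0.70 and 0.83 in MGT D10, against 5.65 and 5.85 in iPSC2-CM D9 (change -4.99 ± 0.70, adjusted p = 4.3e-06). The giant spring protein titin, encoded by Ttn, read 3.38 and 3.50 in MGT D10, against 5.17 and 4.49 in iPSC2-CM D9 (change -1.39 ± 0.51, adjusted p = 0.024), and its 4 probes changed by -5.12 to -1.39. That call was lost when MGT D10 replicate 1, MGT D10 replicate 2 or iPSC2-CM D9 replicate 1 was left out (adjusted p = 0.089, 0.065 and 0.16). Against iPSC1-CM D13 the change of Ttn was -0.46 (adjusted p = 0.47). The 3 members higher in MGT D10 than in iPSC2-CM D9 sit at the Z-disc and the M-band. Myom2, the myomesin of adult M-bands, read 6.79 and 6.83 in MGT D10, against -1.69 and -2.45 in iPSC2-CM D9. The neoCM arrays (5.99 and 5.91) lay near MGT D10, and the iPSC1-CM D13 arrays (both -0.11) near iPSC2-CM D9. The change was 8.88 ± 0.49 (adjusted p = 9.7e-12), whereas Myom1, the myomesin made from the start of the heartbeat, changed by -1.69 ± 0.50 (adjusted p = 0.0060). Tcap, the telethonin that ties titin to the Z-disc, read 3.32 and 3.13 in MGT D10, against 1.38 and 0.71 in iPSC2-CM D9 (change 2.18 ± 0.32, adjusted p = 8.1e-06). Myoz2, a calcineurin-binding Z-disc protein, read 0.38 and 0.48 in MGT D10, against -2.22 and -3.34 in iPSC2-CM D9 (change 3.21 ± 0.26, adjusted p = 2.4e-09). It did not separate from iPSC1-CM D13 (0.20 and 0.16, change 0.25, adjusted p = 0.43), and neoCM stood above both at 5.28 and 5.29. Against iPSC1-CM D13 the sarcomere count was 6 higher and 9 lower, where 16.6% and 18.6% of all genes were called in those directions (35.2% in all), so that the lower side of this list depends on which iPSC-derived group is used.

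**Figure D2:**
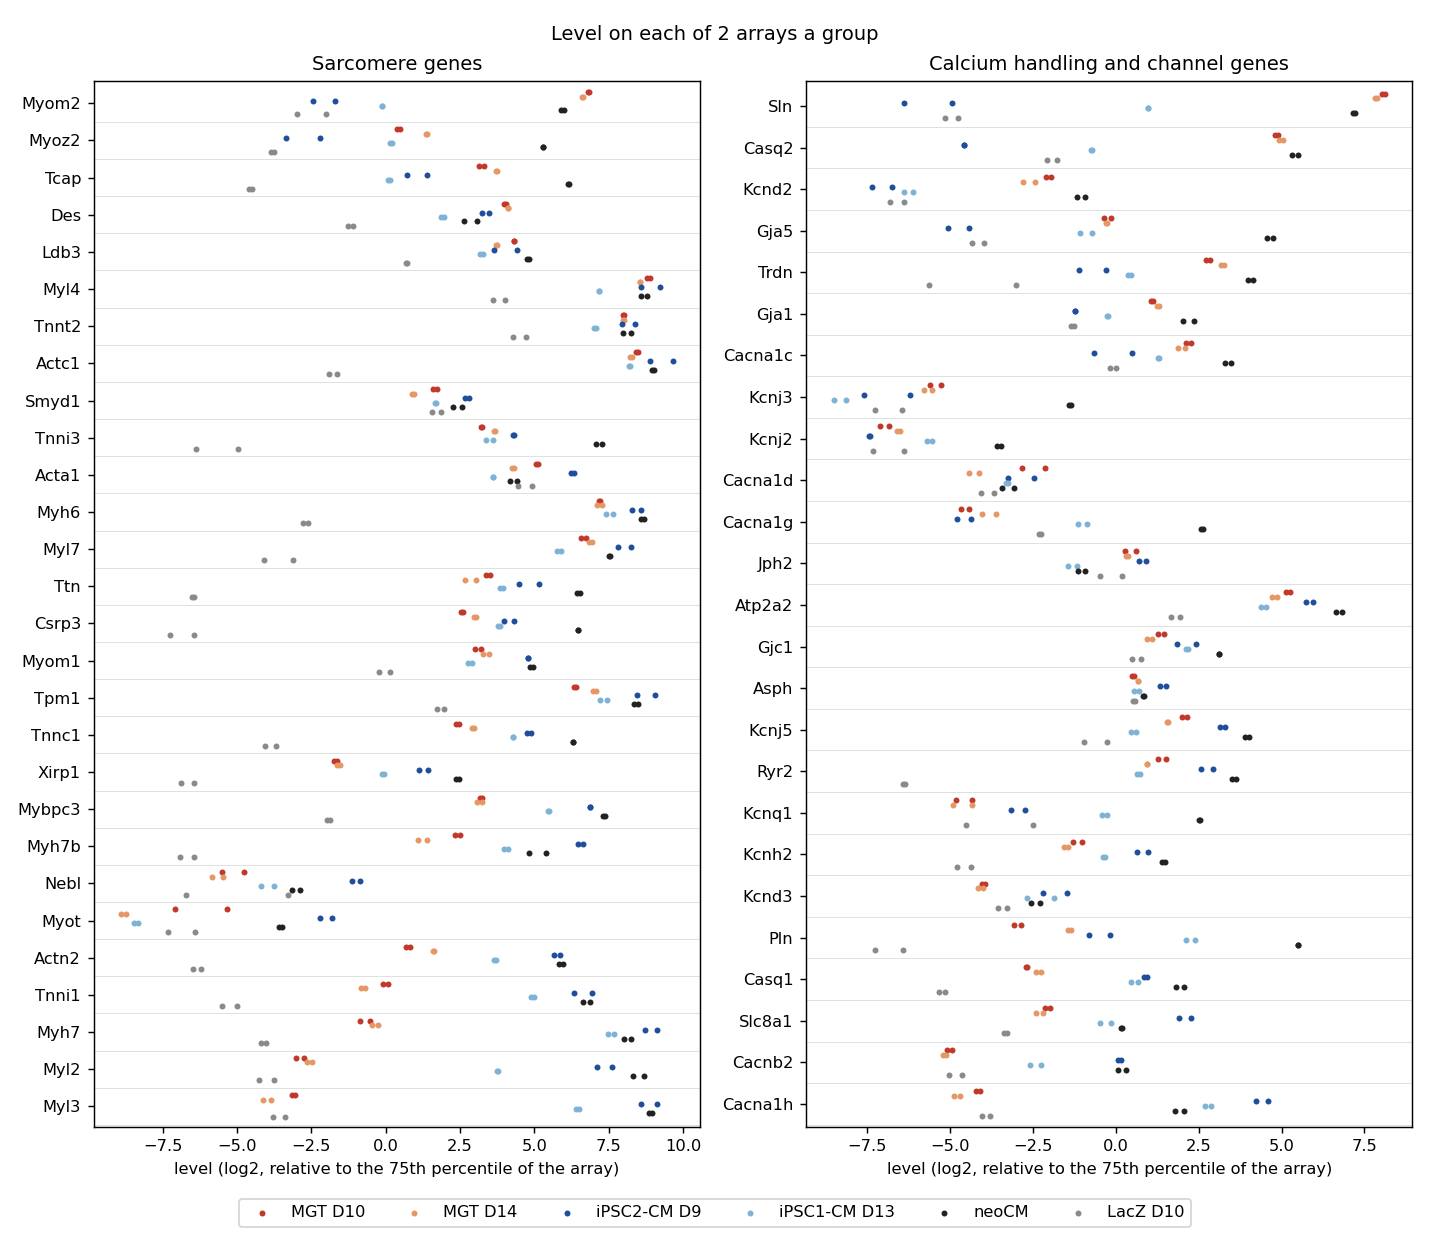
Level of each sarcomere gene (left) and the calcium handling and channel genes shown (right) on the 2 arrays of 6 groups, 1 point an array, with genes ordered by change from the highest in MGT D10 at the top. For Myl3 the red MGT D10 points (-3.06 and -3.14) lie beside the grey LacZ D10 points, and for Sln they (8.12 and 8.02) lie beside the black neoCM points (7.22 and 7.15).

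Promoters are shown for genes from each side of the muscle lists, 250 bases before to 50 after the start in RefSeq (GRCm38.p6), in lower case with motif matches in capitals on either strand. They were picked after the values were seen, and each is marked only for 1 motif that it holds. Motif matches were not counted by direction of change, and a link to the delivered Mef2c was not tested. The MEF2 box is the A/T-rich element bound by the family of the delivered Mef2c, and the CArG box the element bound by serum response factor. Casq2 (chr3:102086165-102086464, plus strand) and Myoz2 (chr3:123034938-123035237, minus strand), both higher in MGT D10, hold 1 MEF2 box each, beginning at -69 and -33. Myl3 (chr9:110763428-110763727, plus strand), lower in MGT D10, holds 1 CArG box beginning at -85.
Casq2: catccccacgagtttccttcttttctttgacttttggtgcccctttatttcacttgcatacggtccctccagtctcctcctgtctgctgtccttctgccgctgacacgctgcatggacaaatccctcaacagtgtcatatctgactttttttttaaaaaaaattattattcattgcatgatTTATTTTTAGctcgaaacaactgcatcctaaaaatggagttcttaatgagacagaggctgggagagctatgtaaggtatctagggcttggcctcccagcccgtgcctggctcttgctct
Myoz2: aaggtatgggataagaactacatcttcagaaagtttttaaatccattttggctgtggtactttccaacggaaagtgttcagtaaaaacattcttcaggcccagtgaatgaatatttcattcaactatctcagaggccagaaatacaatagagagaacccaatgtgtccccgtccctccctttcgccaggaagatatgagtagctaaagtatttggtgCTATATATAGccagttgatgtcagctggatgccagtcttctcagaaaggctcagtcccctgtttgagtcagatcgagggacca
Myl3: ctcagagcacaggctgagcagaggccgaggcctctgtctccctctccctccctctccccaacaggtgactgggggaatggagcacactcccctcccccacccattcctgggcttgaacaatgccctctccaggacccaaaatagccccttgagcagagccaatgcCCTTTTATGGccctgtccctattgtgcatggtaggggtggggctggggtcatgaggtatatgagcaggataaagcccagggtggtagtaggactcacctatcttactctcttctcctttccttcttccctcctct
A MEF2 box was found in 3 of 33 promoters of sarcomere genes (9.09%), in 3 of 15 of skeletal muscle genes (20%) and in 1 of 23 of calcium and channel genes (4.35%), against 3.19% of all 32851 promoters. A CArG box was found in 8 of 33 sarcomere promoters (24.2%), against 1.63% of all. These are matches of letters in 300 bases, not measured binding, and in the 6 promoters printed here no match shared a base with a match of another motif; overlaps in the other promoters were not counted.

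Calcium handling genes were divided, with 9 of 27 higher and 9 lower in MGT D10 (33.3% each way). Over all genes 20.6% were higher and 23.4% lower. The median change of the list was -0.37. The rises were led by regulators inside the sarcoplasmic reticulum. Sln, sarcolipin, a small inhibitor of the calcium pump found in atrial and some skeletal muscle, read 8.12 and 8.02 in MGT D10, against -4.95 and -6.40 in iPSC2-CM D9, where 1 of the 2 arrays was above background. It read 7.22 and 7.15 in neoCM, 0.97 and 0.98 in iPSC1-CM D13 and -4.75 and -5.16 in LacZ D10, so MGT D10 lay with neoCM (change 13.74 ± 0.56, adjusted p = 1.0e-13). Casq2, the cardiac calsequestrin that stores calcium, read 4.89 and 4.79 in MGT D10, against -4.59 on both iPSC2-CM D9 arrays (change 9.43 ± 0.21, adjusted p = 2.0e-17). Casq1, its skeletal counterpart, went the other way, at -2.67 and -2.71 in MGT D10, against 0.84 and 0.93 in iPSC2-CM D9 (change -3.58 ± 0.44, adjusted p = 6.8e-07). Trdn, triadin, which links calsequestrin to the release channel, was higher in MGT D10 by 3.48 ± 0.58. The release channel itself, Ryr2, read 1.27 and 1.5 in MGT D10, against 2.93 and 2.57 in iPSC2-CM D9 (change -1.36 ± 0.49, adjusted p = 0.021). Leaving out MGT D10 replicate 1, MGT D10 replicate 2 or iPSC2-CM D9 replicate 1 ended that call (adjusted p = 0.094, 0.050 and 0.11), and against iPSC1-CM D13 the change was 0.70 (adjusted p = 0.24). The pump Atp2a2 read 5.26 and 5.15 in MGT D10, against 5.75 and 5.95 in iPSC2-CM D9, and was not called (adjusted p = 0.31). Pln, phospholamban, the ventricular inhibitor of that pump, was lower at -2.86 and -3.06 in MGT D10, against -0.18 and -0.81 in iPSC2-CM D9 (change -2.47 ± 0.48), a call lost with MGT D14 (-0.90, adjusted p = 0.11).

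Among membrane channels the falls were larger. Cacna1h, a T-type calcium channel of the embryonic heart, read -4.11 and -4.23 in MGT D10, against 4.58 and 4.22 in iPSC2-CM D9 (change -8.57 ± 0.54, adjusted p = 5.5e-11), and LacZ D10 read -4.04 and -3.81, just above MGT D10. A second Cacna1h probe changed by -1.51, so the size of the fall depends on the probe. Cacnb2, an auxiliary subunit of the L-type calcium channel, changed by -5.14 ± 0.54, and Slc8a1, the sodium-calcium exchanger, by -4.16 ± 0.47. The L-type pore subunit Cacna1c was higher in MGT D10 by 2.27 ± 0.29, but its 2 probes disagreed, the other changing by -2.87 and their mean by -0.30 (adjusted p = 0.49). Potassium channel Kcnd2 was at least 9.93-fold higher in MGT D10 (adjusted p = 0.00022). The connexins Gja1 and Gja5, which form gap junctions of the working muscle and of atrium and conduction tissue, were higher by 2.33 ± 0.20 and 4.48 ± 0.37, and Gja5 against iPSC1-CM D13 by 0.66 (adjusted p = 0.14), with a second Gja5 probe at 0.73 in the main comparison. Of 10 pacemaker genes 3 were higher and 1 lower, beside 20.6% and 23.4% of all genes, and with MGT D14 3 were higher and 4 lower, with a median of -0.54, against a median of 0.20 with MGT D10. Against iPSC1-CM D13 2 were higher and 3 lower, where 16.6% and 18.6% of all genes were. Among those higher than in iPSC2-CM D9 was Shox2, a factor of the sinus node, at least 6.82-fold higher (adjusted p = 7.2e-06) but not called against iPSC1-CM D13 (1.68, adjusted p = 0.064).

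Cardiac transcription factors were mostly lower in MGT D10, 14 of 23 (60.9%) against 2 higher (8.70%), with a median change of -1.29. Of all genes 23.4% were lower and 20.6% higher. Isl1, the factor of second heart field progenitors, read -6.98 and -6.95 in MGT D10, against 2.61 and 1.70 in iPSC2-CM D9. Hand1, a factor of the left ventricle and extraembryonic mesoderm, read -7.14 and -7.60 in MGT D10, against 0.89 and 1.48 in iPSC2-CM D9. Neither was above background on any MGT D10 array, and the differences were at least 154.0-fold and at least 78.5-fold (adjusted p = 1.1e-10 and 7.4e-08). Nkx2-5, a core factor of the cardiac lineage, read -3.79 and -3.73 in MGT D10, against 4.40 and 4.61 in iPSC2-CM D9 (change -8.27 ± 0.57, adjusted p = 2.4e-10). The LacZ D10 arrays (-4.22 and -3.66) overlapped those of MGT D10, and neoCM read 4.94 and 4.76. Prox1, a homeobox factor of the heart and lymphatics, was at least 24.3-fold lower in MGT D10 (adjusted p = 2.1e-06). All 4 genes were lower in MGT D10 against iPSC1-CM D13 as well. Of the delivered factors, Mef2c read 0.66 and 0.54 in MGT D10, against 1.02 and 1.37 in iPSC2-CM D9, with -3.41 and -2.56 in LacZ D10. Gata4 read 3.08 and 3.02 in MGT D10, against 3.17 and 3.63 in iPSC2-CM D9, with 2.74 and 2.48 in LacZ D10. Neither was called (adjusted p = 0.27 and 0.074), and with MGT D14 in place of MGT D10 Mef2c was called lower (-1.19, adjusted p = 0.032). Tbx5 read -1.33 and -1.30 in MGT D10, against -0.16 and -0.21 in iPSC2-CM D9 (change -1.13 ± 0.32, adjusted p = 0.0049), with -1.28 and -1.04 in LacZ D10 and 4.11 and 3.89 in neoCM. The Tbx5 call ended with the authors' deposited log2 values (-0.86, adjusted p = 0.021, under 2-fold). Whether the probes of these genes can bind the delivered transcript was not tested. Higher in MGT D10 were Zfpm2, a cofactor of Gata4 (4.21 ± 0.53), and Tbx20, a T-box factor of chamber muscle (2.73 ± 0.18). LacZ D10 read 0.74 and 0.88 for Zfpm2 and 4.18 and 3.87 for Tbx20, at or above MGT D10 (both 0.01, and 4.11 and 4.04), and neither gene was called against iPSC1-CM D13 (0.67 and 0.31, adjusted p = 0.29 and 0.14).

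**Figure D3:**
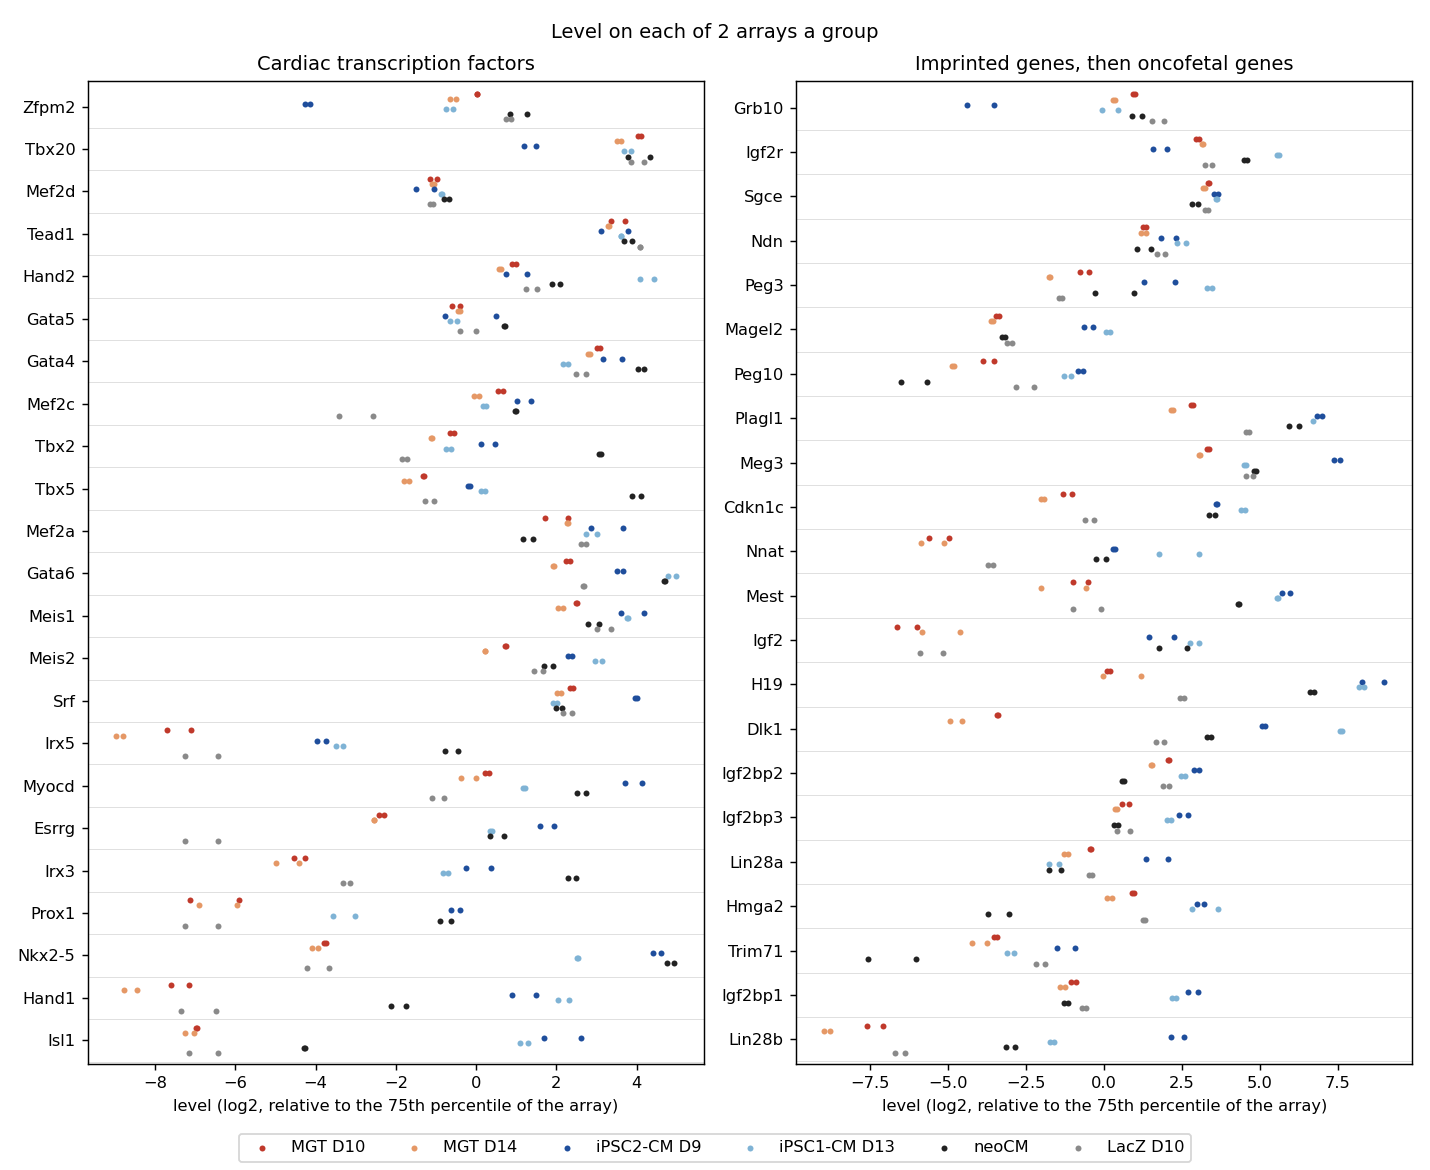
Level of each cardiac transcription factor (left) and of imprinted and then oncofetal genes (right) on the 2 arrays of 6 groups, 1 point an array, with genes ordered within a list by change from the highest in MGT D10. For Nkx2-5 the MGT D10 points (-3.79 and -3.73) lie among the LacZ D10 points, and for Dlk1 (-3.38 and -3.43) below them (1.92 and 1.67).

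Ventricular genes were mostly lower, where 23.4% of all genes were lower and 20.6% higher. Of 7 ventricular genes 6 were lower in MGT D10, with a median change of -5.82, among them Mpped2 (-5.82 ± 0.23, adjusted p = 7.8e-14), and the ventricular factor Irx4 (-3.55, adjusted p = 9.9e-08). The 12 atrial genes gave 4 higher (33.3%) and 5 lower (41.7%) with a median of 0.11. Nppa, the atrial natriuretic peptide, read 1.67 and 1.36 in MGT D10, against 5.22 and 4.97 in iPSC2-CM D9 (change -3.58 ± 0.34), with 8.55 and 8.70 in neoCM. Against iPSC1-CM D13 the Nppa change was -0.89 (adjusted p = 0.031), under 2-fold. Its relative Nppb, the peptide of strained ventricles, fell by 5.35 on the log2 scale (adjusted p = 2.2e-07), and Ednra, an endothelin receptor, by 6.26 (SE 0.19, adjusted p = 1.5e-15). Chrm2, the muscarinic receptor through which the vagus slows the heart, was at least 9.04-fold higher in MGT D10 (adjusted p = 2.9e-07) than in iPSC2-CM D9, yet lower than in iPSC1-CM D13 by 1.14 (adjusted p = 0.031). Skeletal muscle isoforms were present too, 5 of 19 higher and 10 lower in MGT D10 (5 and 7 with MGT D14). These shares were 26.3% and 52.6%, beside 20.6% and 23.4% of all genes. Myh1, the fast IIx myosin heavy chain, read 3.01 and 2.96 in MGT D10, against -7.64 and -7.68 in iPSC2-CM D9, at least 322.0-fold higher (adjusted p = 1.9e-10). Myh2, the IIa chain, was at least 58.9-fold higher (adjusted p = 2.5e-09). The LacZ D10 arrays read -0.64 and -0.79 for Myh1, and neoCM -7.83 and -7.62, so this transcript was measured in infected fibroblasts of both kinds and not in neoCM. These heavy chain genes are near-identical neighbours, and cross-binding of probes was not tested. Of 15 isoforms typical of the adult heart 5 were higher (33.3%) and 8 lower (53.3%). Higher beside Casq2, Myom2 and Tcap was Mb, myoglobin, the oxygen store of muscle (1.74 ± 0.39). Cpt1b, the muscle carnitine palmitoyltransferase, was lower at -4.50 and -4.62 in MGT D10, against 2.54 and 2.42 in iPSC2-CM D9 (change -7.04 ± 0.32).

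Matrix and fibroblast genes showed the reverse pattern: 22 of 28 were higher in MGT D10 and 0 lower, with a median change of 5.31 (4.59 with genes below background at their bound). Of all genes 20.6% were higher and 23.4% lower. At an unadjusted p under 0.05, 24 members were higher and 1 lower, against 12895 of all genes in either direction. The median level of the list was 4.35 and 4.40 in MGT D10, against -0.67 and -0.73 in iPSC2-CM D9, and 5.43 and 5.13 in LacZ D10. S100a4, a calcium-binding protein used as a fibroblast marker, read 7.22 and 7.07 in MGT D10, against -3.60 and -3.38 in iPSC2-CM D9 (change 10.64 ± 0.67, adjusted p = 6.1e-11). Thy1 changed by 10.42 ± 1.05. Dcn, the collagen-binding proteoglycan decorin, read 6.11 and 6.09 in MGT D10, against -3.65 and -4.07 in iPSC2-CM D9 (change 9.96 ± 1.60, adjusted p = 2.1e-05). Lox, the enzyme that crosslinks collagen, changed by 9.44 ± 0.36. The collagen I gene Col1a1 read 7.63 and 7.40 in MGT D10, against 4.36 and 4.02 in iPSC2-CM D9 (change 3.33 ± 0.32). Values in the iPSC1-CM D13 arrays differed for several members. Col3a1, collagen III, read 5.78 and 5.95 in MGT D10, against 1.38 and 1.37 in iPSC2-CM D9 (change 4.49 ± 0.85, adjusted p = 0.00014), but iPSC1-CM D13 read 6.78 and 6.73. Postn, periostin, read 5.37 and 5.60 in MGT D10, against -1.29 and -2.17 in iPSC2-CM D9 (change 7.22 ± 1.00), with 4.46 and 4.48 in iPSC1-CM D13 (change 1.02, adjusted p = 0.40). Ddr2, a collagen receptor, changed by 6.54 ± 0.77 against iPSC2-CM D9 and by 1.5 (adjusted p = 0.11) against iPSC1-CM D13. Over the list, 11 members were higher and 4 lower against iPSC1-CM D13, whose list median was 3.44 and 3.46. Of all genes 16.6% were higher and 18.6% lower in that comparison.

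Genes of TGF-beta and BMP signalling moved in both directions. Of 21 genes 9 were higher (42.9%) and 7 lower (33.3%) in MGT D10, where 20.6% and 23.4% of all genes were. On the higher side were Ltbp2, a latent TGF-beta binding protein (7.61 ± 0.44), Inhba, the subunit of activin A (7.15 ± 0.11), Grem1, a secreted BMP antagonist (5.98 ± 0.64), and Tgfbr2, the type II TGF-beta receptor (5.43 ± 0.62, with a second probe at -0.30). Inhba read 3.63 and 3.58 in MGT D10, against -3.38 and -3.71 in iPSC2-CM D9, and 2.78 and 2.73 in iPSC1-CM D13 (change 0.84 there, under 2-fold). On the lower side were the ligands Bmp7, Bmp5, Bmp2, Bmp10 and Bmp4 and the BMP-induced inhibitors Id1 and Id2, Id2 being under 2-fold with MGT D14 (-0.44). Bmp7 read -5.13 and -5.77 in MGT D10, against 5.06 on both iPSC2-CM D9 arrays, at least 1152-fold lower (adjusted p = 2.4e-08). Bmp2 changed by -4.64 ± 0.36, and Id1 read 1.51 and 1.48 in MGT D10, against 3.63 and 3.60 in iPSC2-CM D9 (change -2.12 ± 0.18). Epicardial genes were higher in 7 of 8 cases, the exception being Krt19, a keratin, which fell by 5.81 on the log2 scale. Msln, mesothelin, read 5.37 and 5.26 in MGT D10, against -4.87 and -5.38 in iPSC2-CM D9, where 1 of the 2 arrays was above background (change 10.44 ± 0.44). Aldh1a2, which makes retinoic acid, changed by 7.60 ± 0.26 and the factor Tbx18 by 6.54 ± 0.39. Of 13 smooth muscle genes 7 were higher and 2 lower, led by the light chain kinase gene Mylk (at least 12.5-fold, adjusted p = 4.4e-05) and the integrin gene Itga8 (4.10 ± 0.41), while the calponin gene Cnn1 fell by 2.92 on the log2 scale (adjusted p = 0.0018). Endothelial genes were lower, 12 of 16 against 3 higher, with a median change of -3.74, and with MGT D14 11 were lower and 1 higher. Robo4 and Tie1, receptors of the vessel lining, were at least 89.2-fold and at least 41.5-fold lower in MGT D10 (adjusted p = 1.8e-09 and 1.5e-05). Cdh5, the endothelial cadherin, read -4.44 and -3.65 in MGT D10, against 1.34 and 1.21 in iPSC2-CM D9 (change -5.32 ± 0.86), with 0.54 and 0.41 in neoCM. Eng, an accessory TGF-beta receptor of endothelial and stromal cells, was higher by 3.08 ± 0.30.

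**Figure D4:**
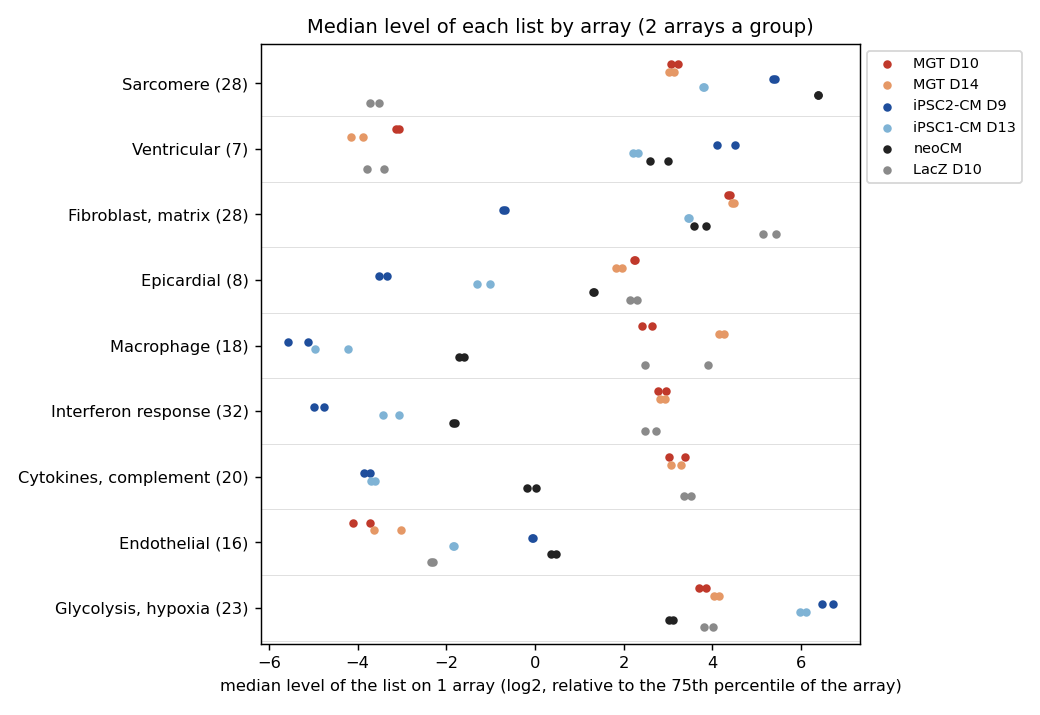
Median level of 9 gene lists on each array (horizontal axis, log2 relative to the 75th percentile of the array), 1 point an array, with the number of genes in brackets. MGT D10 lies with LacZ D10 for the macrophage, interferon, cytokine and epicardial lists, between LacZ D10 and iPSC2-CM D9 for the sarcomere list, and below every other group plotted for the endothelial list.

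Interferon-stimulated genes were nearly all higher, where 20.6% of all genes were higher and 23.4% lower. Of 32 tested, 31 were higher in MGT D10 and 0 lower (32 and 0 at an unadjusted p under 0.05), with a median change of 6.98 (5.78 with bounds), and the exception, Tap1, an antigen peptide transporter, was at 0.75 (adjusted p = 0.066; 1.22, called, without iPSC2-CM D9 replicate 2). The median level was 2.95 and 2.78 in MGT D10, against -4.76 and -4.99 in iPSC2-CM D9. LacZ D10 (2.73 and 2.48) lay next to MGT D10, and CF D0 read 4.15 and 4.14. iPSC1-CM D13 read -3.43 and -3.06, and against it 31 members were higher as well, where 16.6% of all genes were. Ifit3, an RNA-binding antiviral protein, read 3.46 and 2.93 in MGT D10, against -7.66 and -6.21 in iPSC2-CM D9, at least 373.0-fold higher (adjusted p = 1.9e-10). Isg15, a ubiquitin-like modifier, was measured in all 4 arrays, at 6.48 and 6.26 in MGT D10, against -0.65 and -1.04 in iPSC2-CM D9 (change 7.22 ± 0.30, adjusted p = 1.4e-13). Irf7, a transcription factor of the interferon response, was at least 57.2-fold higher (adjusted p = 1.6e-13). The promoters of Ifit3 (chr19:34583279-34583578, plus strand) and Isg15 (chr4:156200769-156201068, minus strand), chosen after their values were seen, are shown with the interferon-stimulated response element GAAANNGAAA in capitals. Ifit3 holds 2 matches beginning at -156 and -122, and Isg15 holds 3 that overlap, beginning at -78, -72 and -66.
Ifit3: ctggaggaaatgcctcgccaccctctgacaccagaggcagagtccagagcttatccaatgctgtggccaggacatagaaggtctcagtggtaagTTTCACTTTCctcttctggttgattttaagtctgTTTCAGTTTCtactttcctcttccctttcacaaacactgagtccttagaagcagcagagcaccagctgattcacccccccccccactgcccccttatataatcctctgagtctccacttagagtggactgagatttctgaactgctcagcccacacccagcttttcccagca
Isg15: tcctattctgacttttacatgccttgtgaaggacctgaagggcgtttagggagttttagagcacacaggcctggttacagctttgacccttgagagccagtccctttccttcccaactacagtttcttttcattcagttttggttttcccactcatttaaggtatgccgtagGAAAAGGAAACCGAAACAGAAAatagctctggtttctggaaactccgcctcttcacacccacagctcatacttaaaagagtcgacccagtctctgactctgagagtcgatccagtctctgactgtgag
That element was found on either strand in 13 of 29 promoters of the list (44.8%), against 3.44% of all 32851.

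Macrophage genes were also higher, 17 of 18, with a median change of 6.84, Itgam, an integrin, being the exception at 0.54 (adjusted p = 0.17). Of all genes 20.6% were higher and 23.4% lower. The median level was 2.40 and 2.63 in MGT D10, against -5.56 and -5.11 in iPSC2-CM D9, with 2.47 and 3.90 in LacZ D10. Ctss, a lysosomal protease, read 5.14 and 5.09 in MGT D10, against -7.43 and -7.50 in iPSC2-CM D9, at least 1411-fold higher (adjusted p = 1.3e-15). Lyz2, lysozyme, was at least 765.0-fold and C1qc, a complement component made by macrophages, at least 275.0-fold higher (adjusted p = 4.1e-10 and 1.6e-09). Adgre1, a surface receptor used to mark macrophages, read 2.88 and 2.92 in MGT D10, against -7.60 and -7.65 in iPSC2-CM D9 (change 10.53 ± 0.36), its probe being below background there on both arrays and another of its probes above it on 1. These 4 defining markers were all bright in MGT D10, and their part in the interferon and cytokine levels was not tested. Of 20 cytokine and complement genes 19 were higher, the exception being the chemokine gene Cxcl12 at 0.89 (adjusted p = 0.32, with a second probe at 4.17). Saa3, an acute phase protein, read 4.80 and 4.98 in MGT D10, against -7.43 and -7.49 in iPSC2-CM D9, at least 1207-fold higher (adjusted p = 4.0e-16). The cytokine gene Il6 was at least 344.0-fold higher (adjusted p = 2.8e-11).

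Glycolysis genes were mostly lower in MGT D10. Of 23 glycolysis and hypoxia genes 18 were lower and 1 higher, with a median change of -1.58, and the median level was 3.70 and 3.86 in MGT D10, against 6.48 and 6.71 in iPSC2-CM D9. Slc2a3, a high-affinity glucose transporter, read -1.38 and -1.39 in MGT D10, against 6.45 and 6.73 in iPSC2-CM D9 (change -7.97 ± 0.19, adjusted p = 4.9e-17). The aldolase gene Aldoc changed by -5.67 ± 0.52, the pyruvate dehydrogenase kinase gene Pdk1 by -3.51 ± 0.25 and the phosphofructokinase gene Pfkp by -3.51 ± 0.39, a second probe of Pfkp changing by -0.76. The median level of neoCM (3.11 and 3.02) lay below MGT D10, and that of iPSC1-CM D13 (5.98 and 6.10) near iPSC2-CM D9. Pgk1, phosphoglycerate kinase, read 5.85 and 5.81 in MGT D10, against 8.14 and 8.77 in iPSC2-CM D9 (change -2.63 ± 0.24, adjusted p = 2.5e-08). Its promoter (chrX:106186850-106187149, plus strand) is shown with the core of the hypoxia response element, ACGTG, in capitals, at -150 and -131.
Pgk1: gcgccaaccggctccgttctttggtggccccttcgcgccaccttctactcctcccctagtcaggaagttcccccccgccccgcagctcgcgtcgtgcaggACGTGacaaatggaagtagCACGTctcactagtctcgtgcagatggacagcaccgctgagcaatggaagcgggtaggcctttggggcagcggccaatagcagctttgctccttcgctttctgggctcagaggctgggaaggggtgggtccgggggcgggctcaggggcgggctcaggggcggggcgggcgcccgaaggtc
That core was found on either strand in 17 of 35 promoters of the list (48.6%), against 19.6% of all. The single gene higher in MGT D10 was Egln3, an oxygen-sensing prolyl hydroxylase, at 3.59 on both MGT D10 arrays, against 2.28 and 2.48 in iPSC2-CM D9 (change 1.21 ± 0.22, adjusted p = 9.5e-05), with 3.67 and 3.80 in iPSC1-CM D13. Of 29 respiratory chain genes 10 were lower (34.5%) and 0 higher in MGT D10, where 23.4% and 20.6% of all genes were. At an unadjusted limma p under 0.05, 24 were lower and 0 higher, against 7101 and 5794 of all 19408 genes. The count was 5 lower under quantile normalization and 5 with the authors' deposited log2 values. Against iPSC1-CM D13 3 were lower, with a median of -0.50, where 18.6% of all genes were lower. The muscle isoforms Cox6a2 and Cox7a1 of cytochrome c oxidase changed most, by -5.95 ± 0.39 and -4.09 ± 0.31. The ubiquitous counterpart Cox6a1 changed by -0.14 (adjusted p = 0.52). Of 26 fatty acid oxidation genes 7 were lower and 1 higher, the lower share being near that of all genes (23.4%), and against iPSC1-CM D13 4 were lower and 2 higher with a median of -0.08. Cpt1b and the coactivator gene Ppargc1a (-4.33 ± 0.23) fell most, while the liver-type Cpt1a was higher by 1.48 ± 0.14, and by 0.18 (adjusted p = 0.28) against iPSC1-CM D13.

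Proliferation genes were modestly lower. Of 31 cell cycle genes 13 were lower (41.9%) and 3 higher (9.68%), where 23.4% and 20.6% of all genes were. The list had a median change of -1.31 and a lowest change of -2.80. Bub1b, a kinase of the spindle checkpoint, read -1.60 and -1.52 in MGT D10, against 0.99 and 1.00 in iPSC2-CM D9 (change -2.55 ± 0.66, adjusted p = 0.0023). Mki67, the usual proliferation marker, read 2.59 and 2.64 in MGT D10, against 3.69 and 3.75 in iPSC2-CM D9, and was not called (adjusted p = 0.38, and 0.0043 in a fit of the 4 arrays alone). Ccnd1, the G1 cyclin D1, was higher in MGT D10 by 2.37 ± 0.39. The elements CCAAT and TTTGAA, common before mitotic genes, were found in 84.0% and 44.0% of the list's 25 promoters, against 37.4% and 17.9% of all. Against iPSC1-CM D13 the count was 20 lower and 0 higher, where 18.6% and 16.6% of all genes were. Of 15 genes of cyclin-dependent kinase inhibitors and the p53 response 4 were higher and 3 lower in MGT D10. Both shares were near those of all genes (20.6% and 23.4%), and the median change of the list was -0.03. Cdkn2a, Cdkn2b and Cdkn2c, inhibitors of the kinases that cyclin D binds, were higher in MGT D10 by 3.00 ± 0.69, 3.14 ± 0.46 and 3.73 ± 0.48, whereas Cdkn2d of the same family changed by -1.64 ± 0.28 (adjusted p = 4.1e-05). Cdkn2a read 2.85 and 2.50 in MGT D10, against -0.22 and -0.43 in iPSC2-CM D9, and 3.98 and 3.62 in LacZ D10. Cdkn1c and Cdkn1b, of the family that blocks a wider range of these kinases, were lower by -4.78 ± 0.31 and -2.28 ± 0.11, and Cdkn1a was not called (-0.52, adjusted p = 0.38).

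Imprinted, oncofetal and early mesoderm genes were mostly lower in MGT D10, where 23.4% of all genes were lower and 20.6% higher. Of 15 imprinted genes, those read from only the maternal or paternal copy, 11 were lower in MGT D10 and 2 higher, with a median change of -4.08. The median level of the list was -0.77 and -0.48 in MGT D10, against 2.27 and 2.32 in iPSC2-CM D9. It was 2.84 and 3.02 in neoCM, 1.92 and 1.56 in LacZ D10 and 1.81 and 1.88 in CF D0, so MGT D10 was the group that stood apart among these. H19, a long RNA from the maternal copy, read 0.19 and 0.09 in MGT D10, against 8.27 and 9.0 in iPSC2-CM D9 (change -8.49 ± 0.35, adjusted p = 1.3e-13), and its 7 probes changed by -9.79 to -2.70. Igf2, the neighbouring fetal growth factor, was at least 124.0-fold lower (adjusted p = 1.4e-12). Dlk1, a Notch-related surface protein, read -3.38 and -3.43 in MGT D10, against 5.08 and 5.16 in iPSC2-CM D9 (change -8.52 ± 0.60, adjusted p = 3.0e-10). The LacZ D10 arrays read 1.92 and 1.67 for Dlk1 and 2.44 and 2.56 for H19, above MGT D10 in both cases. Grb10, a growth factor receptor adaptor, was higher in MGT D10 by 4.92 ± 0.27. Igf2r, the receptor that clears Igf2, was higher by 1.20 ± 0.21 (0.97, under 2-fold, without iPSC2-CM D9 replicate 2), but lower by -2.58 (adjusted p = 3.3e-09) against iPSC1-CM D13. All 7 oncofetal genes tested had a lower mean in MGT D10, 6 of them called. Lin28b, which blocks maturation of let-7 microRNAs, read -7.07 and -7.61 in MGT D10, against 2.56 and 2.14 in iPSC2-CM D9, at least 176.0-fold lower (adjusted p = 2.6e-10). Igf2bp1, an RNA-binding protein of fetal cells, read -1.06 and -0.90 in MGT D10, against 2.70 and 3.01 in iPSC2-CM D9 (change -3.84 ± 0.16), and Hmga2, a chromatin protein that let-7 represses, changed by -2.16 ± 0.44. Of 11 genes of Nodal signalling and early mesoderm 7 were lower and 1 higher (9 and 1 with MGT D14). Cfc1 read -7.16 and -7.73 in MGT D10, against 3.43 and 3.26 in iPSC2-CM D9, at least 352.0-fold lower (adjusted p = 1.0e-09). Fgf8 and Fgf10, fibroblast growth factors of the cardiac progenitor field, changed by -4.85 ± 0.42 and -5.16 ± 0.54, and Fgf8 by -0.23 (adjusted p = 0.66) against iPSC1-CM D13. Lefty1, a Nodal inhibitor, was at least 2.02-fold higher (adjusted p = 1.0e-06). Pluripotency genes were low in both groups, with 9 of 15 lower and 3 higher in MGT D10 and median levels of -2.44 and -2.31, against -1.27 and -1.38 in iPSC2-CM D9. The list median was -1.19 and -0.89 in neoCM, not below iPSC2-CM D9, and -2.37 and -2.61 in LacZ D10. Pou5f1, which encodes Oct4, read -7.06 and -7.59 in MGT D10, against -2.89 and -2.02 in iPSC2-CM D9, at least 6.31-fold lower (adjusted p = 0.00068). Klf4 was higher in MGT D10 by 1.85 ± 0.17, at 2.36 and 2.40 against 0.61 and 0.44 in iPSC2-CM D9, and by 0.89 against iPSC1-CM D13. Myc was not called (1.04 ± 0.50, adjusted p = 0.075), and no probe of Sox2 passed the filter. Whether the probes of these genes can bind the transcripts delivered to make the iPSC line was not tested.

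**Figure D5:**
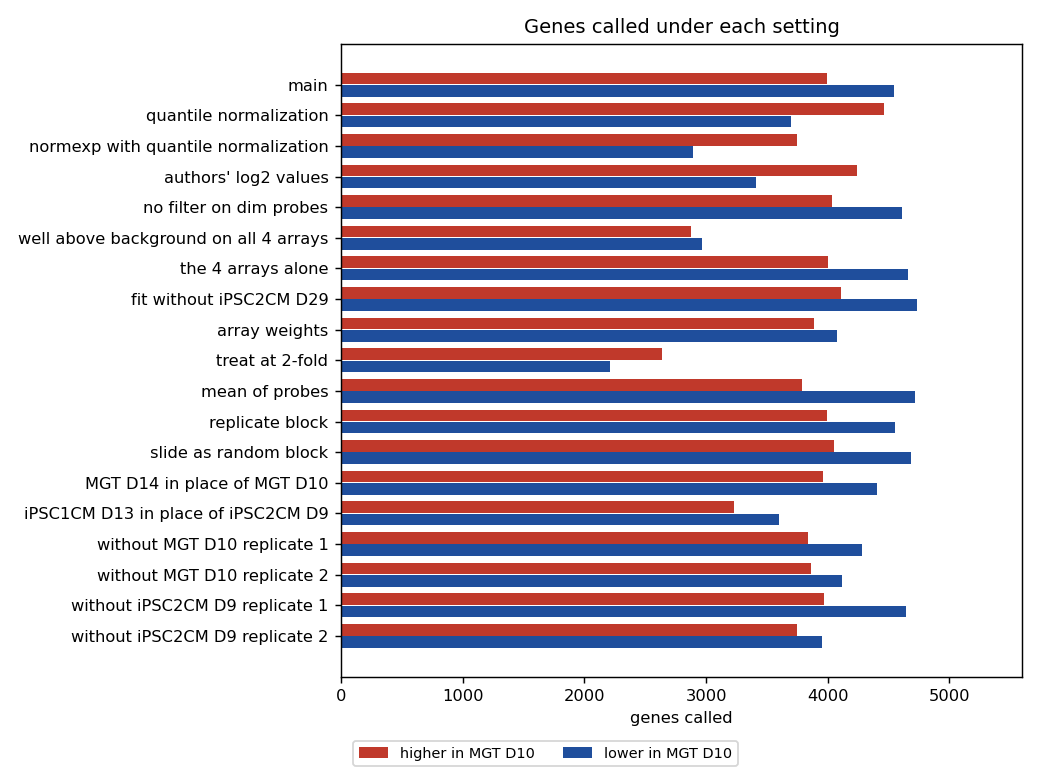
Genes called higher (red) and lower (blue) in MGT D10 under the settings used here and under 18 alternatives, with bars starting at 0. The total ran from 4842 for a test against a 2-fold change to 8842 without the iPSC2-CM D29 arrays, and the larger side was the lower one at 8539 calls (3991 higher, 4548 lower) and the higher one under quantile normalization alone or with normexp, with the authors' values and in the test against a 2-fold change (2634 higher, 2208 lower).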

How the data were processed

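Total RNA of 34 samples in 17 groups of 2 was read on 34 Agilent 1-colour arrays, and the comparison uses 4 of them. Per the file headers, the deposited scanner files were made with Feature Extraction 10.7.3.1 on a design annotated to mm9, and the processed intensity is background-subtracted. The authors' deposited table holds log2 values, made with limma per the submitters' processing notes (version not given in the sources used here), and its column medians lay between 7.49 and 7.52, its further scaling being unknown.

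From the scanner files, outlier spots were removed, spots of a probe averaged, log2 processed intensity taken minus the 75th percentile of each array, and a probe retained where some group had it well above background on each of its arrays (43371 of 55681 probes, 25628 of them named). Names came from RefSeq (GRCm38.p6): 26056 probes by accession, 3200 by symbol and 930 by older symbol. A gene was represented by its brightest probe, and 5115 of 19408 genes had several. Group means were fitted with limma 3.58.1 in R 4.3.3 (17 residual degrees of freedom) with Benjamini-Hochberg adjustment, after the fit was tested on simulated data. The number of arrays limits the precision.

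The members and lists were chosen with earlier results of these data known. Named genes are the 8 largest changes each way and up to 4 each way in a list, the delivered factors, markers, and uncalled members by value; Bmp4, Cacna1c, Gja1, Id2, Irf7, Irx4, Isg15, Myom1, Pgk1, Pln and Trdn were added after their values were seen. Alternatives changed the scaling, background correction, source of values, filter, arrays fitted, weights, test, probe rule, blocks, groups and replicates. No protein sequence was used here, and some genes are not reported here.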

Additional observations from a re-analysis of the deposited data

How the results depend on the processing

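The number of genes called, 8539, was within 1.5 times of this under every alternative except a test against a 2-fold change, which called 4842 (2634 higher and 2208 lower). Genes lower in MGT D10 were 4548, and 2893 with normexp and quantile normalization and 2964 when only probes above background on all 4 arrays were kept, which tests fewer genes. Calls were higher in MGT D10 in 46.7% of cases, in 54.7% under quantile normalization, in 56.4% with normexp followed by quantile normalization, in 55.4% with the authors' values and in 54.4% against a 2-fold change. Leaving out 1 array gave 7700 to 8611 calls, 3746 to 3966 higher and 3954 to 4645 lower. With a replicate block 8544 genes were called, and shared numbers were not shown to pair arrays (r = -0.025 between their deviations over 19396 genes). The block changed no call among the genes named. With slide as a random block 8742 were called. With MGT D14 in place of MGT D10 8363 were called. Of the 141 genes named, 137 stayed on their side of the threshold, and no gene called in either fit turned direction. A change of sign in a gene called in neither fit was not counted as a turn.

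With iPSC1-CM D13 in place of iPSC2-CM D9 6830 genes were called, and 108 of the 141 named stayed on their side of the threshold without a counted turn. Among genes called in either fit, direction turned for Chrm2 (-1.14), Col3a1 (-0.89), Cxcl12 (-2.53), Egln3 (-0.14), Fbln5 (-1.38), Igf2r (-2.58), Myl4 (1.68), Myl7 (0.84), Myom1 (0.27) and Ryr2 (0.70), and for Cacna1c (-0.30) with the mean of its probes. Actc1, called against neither iPSC2-CM D9 nor iPSC1-CM D13, went from -0.81 to 0.25. Line and day differ together in that comparison, and the cause was not tested. With 2 arrays a group, an array that stands apart cannot be told from its partner.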

Other observations

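Lists of other germ layers gave mixed counts, where 20.6% of all genes were higher and 23.4% lower. Of 12 endoderm and epithelial genes 3 were higher and 4 lower in MGT D10, with a median change of 0.18, and the keratin genes Krt8 and Krt18 fell by 6.88 and 4.35 on the log2 scale. Of 13 neural genes 4 were higher and 4 lower, with a median of 0.06. Nes, the intermediate filament nestin, was higher by 3.38, and Pax6, a factor of eye and brain, was at least 21.9-fold lower. Of 30 Hox genes, which pattern the body axis, 4 were higher and 6 lower, with Hoxa5 at least 3.13-fold higher. In 400 of 2204 called genes with several probes, the probes differed in sign.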
